A study of Mus musculus with 2 samples.

Results

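The neutrophil-attracting CXC chemokines Cxcl1, Cxcl2, Cxcl3 and Cxcl5 and their receptor Cxcr2 were followed across the cell classes of MC38 tumors. These 5 genes of the 32285 in the deposited tables were taken from the tables by symbol, and all 5 were detected in both libraries. MC38 is a mouse colon cancer line that was injected under the skin of female mice on the C57BL/6 background, either wild type (Lmo7+/+, labelled WT) or with a whole-body deletion of the ubiquitin ligase gene Lmo7 (Lmo7-/-, labelled KO). By the study's description the deletion concerns the host cells and not the injected MC38 cells, and neither the mouse age nor the number of mice behind a library is given in the labels. Live cells were sorted after warm enzymatic dissociation and run on the 10x Genomics platform as 1 library per genotype, so there were no replicates, the genotypes could not be tested against each other, and the values are those of these 2 libraries alone.

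CXC chemokines with an ELR motif before their first cysteines bind CXCR2, a G protein-coupled receptor that is carried above all by neutrophils and guides them from blood into inflamed tissue and tumors. Cxcl1, Cxcl2 and Cxcl3 encode closely related ligands that stromal, epithelial and myeloid cells make rapidly through NF-kB after signals such as IL-1, TNF or Toll-like receptor ligands. Cxcl5 encodes a further ligand, known mainly from epithelial and mesenchymal cells, and in mice CXCR2 serves this whole group of ligands.

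The 4 ligand genes lie on the plus strand of chromosome 5 within a span of 146579 bases (GRCm38, GENCODE M21), and Cxcr2 lies on chromosome 1. Cxcl5 (ENSMUSG00000029371, chr5:90759360-90761624) stands first, followed by Cxcl3 (ENSMUSG00000029379, chr5:90786103-90789600), Cxcl1 (ENSMUSG00000029380, chr5:90891241-90893115) and Cxcl2 (ENSMUSG00000058427, chr5:90903871-90905938), each with 4 exons in its first listed transcript. Cxcr2 (ENSMUSG00000026180, chr1:74153989-74161246) has 3 exons in its first listed transcript. No annotated gene on either strand overlapped a member. Of all stretches of 50 bases in its transcripts, Cxcl2 shared 5.84% with Cxcl3, none of them nearer than 939 bases to the end of its first listed transcript, and Cxcr2 shared 4.01% with transcripts of 107 other genes, so some reads of these genes cannot be placed with certainty. Cxcl1 shared none.

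The promoters of Cxcl1, Cxcl2 and Cxcl3 are shown because these neighbouring genes were spread differently over the cell classes while carrying one common element. Each sequence runs 5' to 3' on the plus strand from 250 bases before the RefSeq transcription start to 50 bases after it (GRCm38.p6), and capitals mark the NF-kB-type motif GGAATTTCC. The windows are chr5:90890995-90891294 for Cxcl1, chr5:90903649-90903948 for Cxcl2 and chr5:90785851-90786150 for Cxcl3.
Cxcl1: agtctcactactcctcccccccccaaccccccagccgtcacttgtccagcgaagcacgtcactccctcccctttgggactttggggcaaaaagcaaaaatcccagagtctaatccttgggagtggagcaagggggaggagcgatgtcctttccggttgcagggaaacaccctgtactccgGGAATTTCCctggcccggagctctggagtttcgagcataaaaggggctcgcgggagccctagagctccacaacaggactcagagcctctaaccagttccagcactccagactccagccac
Cxcl2: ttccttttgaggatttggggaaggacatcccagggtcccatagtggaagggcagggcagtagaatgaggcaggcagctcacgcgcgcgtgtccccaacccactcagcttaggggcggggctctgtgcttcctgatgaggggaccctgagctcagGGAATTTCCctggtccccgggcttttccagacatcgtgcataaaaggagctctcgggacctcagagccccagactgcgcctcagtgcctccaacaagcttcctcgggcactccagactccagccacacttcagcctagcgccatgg
Cxcl3: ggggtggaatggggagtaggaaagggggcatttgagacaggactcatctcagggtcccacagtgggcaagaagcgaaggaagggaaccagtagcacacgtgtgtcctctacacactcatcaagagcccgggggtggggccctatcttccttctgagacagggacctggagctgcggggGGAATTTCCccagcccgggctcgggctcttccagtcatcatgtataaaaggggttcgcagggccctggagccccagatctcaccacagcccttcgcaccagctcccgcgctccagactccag
The motif began 70 bases before the start of Cxcl1, 96 before that of Cxcl2 and 72 before that of Cxcl3, each time in the transcribed direction. Searched on both strands, it stood in 0.317% of the 32851 promoters of this length, and the promoter of Cxcr2 did not hold it. The letters TATAAA, searched in the transcribed direction, stood in the Cxcl3 window, 30 bases before the start, and in 8.32% of all promoters, whereas TGANTCA, searched on both strands, stood in none of the 4 member promoters and in 7.81% of all promoters. These matches describe the letters and not the binding of a factor.

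The files held 16208 droplets in the WT library and 15163 in the KO library, where the labels name about 10000 sorted live cells as input, and 279 cell barcodes stood in both. Filtering left 13542 and 11860 cells with 94751498 and 76262235 unique molecular identifiers (UMIs, tags that mark single captured RNA molecules), and Scrublet marked 3.23% and 3.15% of them as doublets, which were kept. Cells were clustered without the members and the related gene lists, and clusters were named by marker genes, or, for tumor cell-like cells, by their expression profile along the chromosomes, because several epithelial markers were low there: Epcam was at 3.25 and Krt8 at 1.78 CPM (UMIs of a gene per 1000000 UMIs summed over a class), although Krt14 was at 37.1 and 9 and 8 of the 16 tumor cell markers reached 5 CPM. Classes held 6307 and 5006 tumor cell-like, 2976 and 3511 macrophage-like, 1117 and 940 monocyte-like, 320 and 207 dendritic-like, 126 and 96 fibroblast-like, 97 and 73 endothelial-like and 504 and 650 T-like cells in the WT and KO library, while 15.4% and 11.4% of cells stayed unnamed. No cluster met the naming rule for neutrophils, so the main cell type that CXCR2 guides was not represented as a class. The study annotated a cluster of polymorphonuclear myeloid-derived suppressor cells in both genotypes, so this absence holds for the rule and filter used here. Lmo7 itself had 38 counts in the named host classes of the WT library and 31 in those of the KO library (1.499 and 1.28 CPM, log2 ratio -0.23, 95% interval -0.96 to 0.50), an interval that does not reach a fall of more than 0.96 on the log2 scale. Which part of the gene was deleted, and whether the counted reads lie in it, is not given in the sources used here, so Lmo7 does not check the labels and the libraries are called WT and KO only after them. CPM are given with exact Poisson 95% intervals in parentheses, and log2 ratios are KO over WT with the exact binomial interval of the split of counts, all of which cover counting error only.

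**Figure D1:**
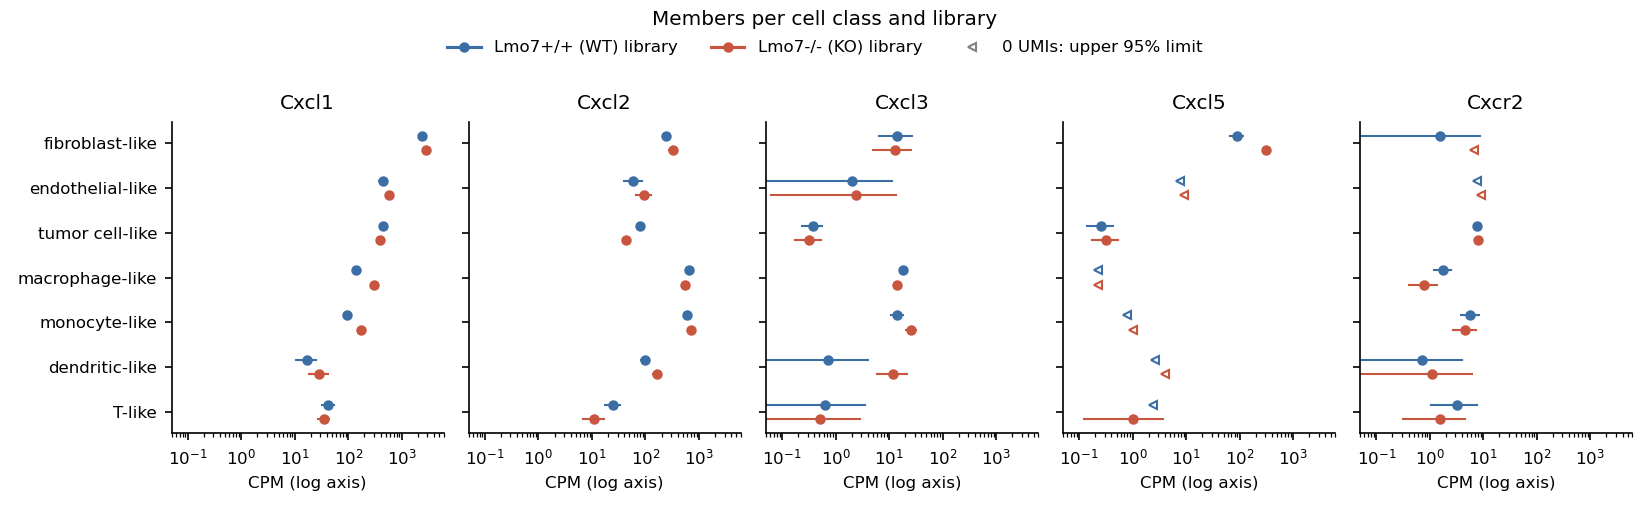
Level of each gene in 7 cell classes (CPM, log axis), 1 point per library with its exact Poisson 95% interval, drawn from 0.05 CPM up. Open triangles give the upper limit where no UMI was counted. Cxcl1 is highest in fibroblast-like cells at 2326 and 2846 CPM, Cxcl2 in macrophage-like and monocyte-like cells, and Cxcl5 in fibroblast-like cells. Cxcl3 is highest in macrophage-like and monocyte-like cells, but its fibroblast-like intervals overlap theirs.

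Cxcl1, a broadly inducible ligand, was led by stromal cells. Fibroblast-like cells had 2326 CPM (2210 to 2447) in the WT library and 2846 (2707 to 2990) in the KO library. Endothelial-like cells followed with 435 and 576 CPM, tumor cell-like cells with 446 and 388, macrophage-like cells with 137 and 302 and monocyte-like cells with 94.8 and 172. Fibroblast-like cells thus stood 5.21-fold (4.94 to 5.49) above tumor cell-like cells in the WT library and 7.34-fold (6.96 to 7.73) in the KO library, and 2.96-fold and 4.05-fold when each cell was counted with at most 10 UMIs of the gene. Endothelial-like and tumor cell-like cells could not be separated in the WT library (0.975-fold, 0.848 to 1.12). In the KO library endothelial-like cells stood higher by counting error alone (1.48-fold, 1.30 to 1.69). However, 10 endothelial-like cells held 76.2% and 70.5% of the Cxcl1 UMIs of their class, with 51 of 237 KO counts in 1 cell. After the thinning described below, the KO shares overlapped, at 38.1% (26.1 to 51.2) of endothelial-like and 30.5% (29.2 to 31.9) of tumor cell-like cells. Cxcl1 was found, without thinning, in 99 of the 126 and 81 of the 96 fibroblast-like cells. The 10 cells with most Cxcl1 UMIs held 40.7% and 38.4% of those of this small class. The highest 1% of cells held 10.8% and 6.30% in fibroblast-like cells (2 and 1 cells). In tumor cell-like cells they held 12.3% and 14.5% (64 and 51 cells).

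After each cell was thinned to 1500 UMIs, Cxcl1 was found in 72.2% (62.1 to 80.8) and 75.3% (64.5 to 84.2) of fibroblast-like cells, in 35.8% and 30.5% of tumor cell-like cells, in 30.2% and 38.1% of endothelial-like cells, in 12.8% (11.6 to 14.1) and 21.8% (20.4 to 23.3) of macrophage-like cells and in 6.66% and 12.3% of monocyte-like cells of the WT and KO library. T-like cells, which are not known to make Cxcl1 and served as the background class, showed it in 3.68% (2.03 to 6.10) and 1.84% (0.847 to 3.47). The median depth was 2208 and 2305 UMIs in T-like cells and 5079 and 4209 in macrophage-like cells, counted without thinning. Dendritic-like cells, with 2.39% and 3.98%, had intervals that overlapped this background. Unthinned, the shares were 60.7% and 52.6% in tumor cell-like, 22.7% and 32.4% in macrophage-like and 6.35% and 4.00% in T-like cells. Shallower cells were left out, 642 and 594 among tumor cell-like, 204 and 364 among macrophage-like and 124 and 162 among T-like cells.

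Cxcl2, in contrast, was highest in macrophage-like and monocyte-like cells. It reached 662 CPM (650 to 675) and 549 (538 to 561) in macrophage-like cells and 584 and 697 in monocyte-like cells, ahead of fibroblast-like cells at 247 and 326, dendritic-like cells at 96.8 and 163, tumor cell-like cells at 80.3 and 44.1 and endothelial-like cells at 59.0 and 94.7. Macrophage-like cells exceeded tumor cell-like cells 8.24-fold (7.97 to 8.53) in the WT library and 12.5-fold (11.9 to 13.1) in the KO library. They exceeded fibroblast-like cells only 2.69-fold (2.30 to 3.16) and 1.68-fold (1.45 to 1.96). The order of these classes differed between the libraries. Monocyte-like cells stood at 0.88-fold (0.85 to 0.92) of the macrophage-like level in the WT library and at 1.27-fold (1.21 to 1.33) in the KO library. The border between them is not sharp. In monocyte-like cells all 12 macrophage markers reached 5 CPM, summing to 10130.5 and 11109.6 CPM. With the lenient filter the monocyte-like class held 591 and 410 cells in place of 1117 and 940. In thinned cells Cxcl2 was found in 40.3% and 38.6% of macrophage-like, 36.2% and 45.0% of monocyte-like and 9.89% and 5.76% of tumor cell-like cells, against a T-like background of 3.95% and 1.43%.

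Cxcl3, the least abundant of the 3 related ligands, followed the pattern of Cxcl2 at a far lower level. Macrophage-like cells had 18.0 and 14.3 CPM (298 and 238 counts) and monocyte-like cells 14.0 and 26.0 (66 and 96 counts). Fibroblast-like cells had 14.0 and 12.7 CPM, but from 9 and 7 counts, 7 and 6 of which came from 1 cell. Macrophage-like cells could not be separated from them, at 1.29-fold (0.671 to 2.85) and 1.13-fold (0.540 to 2.84). Tumor cell-like cells had 0.374 and 0.317 CPM, so that macrophage-like cells stood 48.2-fold (31.2 to 78.1) and 45.3-fold (26.5 to 84.1) above them. Thinned cells with Cxcl3 made up 2.20% and 1.68% of macrophage-like and 1.79% and 2.98% of monocyte-like cells, and 0.0883% and 0.0453% of tumor cell-like cells. The T-like background was 0.263% in the WT library, from 1 cell, and 0 of 488 cells in the KO library, which allows up to 0.615%, so the tumor cell-like shares are not read as expression.

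Cxcl5 was almost confined to fibroblast-like cells, with 57 counts in the WT library (88.4 CPM, 66.9 to 115) and 173 in the KO library (313 CPM, 268 to 364). No UMI was counted in macrophage-like, monocyte-like, dendritic-like or endothelial-like cells of either library, and for macrophage-like cells, against a floor of 3 counts per library, the fibroblast-like level was at least 487-fold and at least 1734-fold higher. Tumor cell-like cells had 15 and 14 counts (0.255 and 0.317 CPM), and T-like cells 0 and 2. The counts came from 4 of 126 fibroblast-like cells in the WT library, with 33, 20, 3 and 1 UMIs, and from 17 of 96 in the KO library, the highest with 51, 25 and 23 UMIs. In thinned cells these shares were 3.09% (0.642 to 8.77) and 11.1% (5.21 to 20.05), with overlapping intervals. The fibroblast-like cells with Cxcl5 also had more Cxcl1 and Cxcl2 than the other fibroblast-like cells. Cxcl1 was at 5027 CPM against 2084 in the WT library and at 4140 against 2482 in the KO library. Cxcl2 was at 866 CPM against 191 in the WT library and at 470 against 286 in the KO library. The cells with Cxcl5 were also deeper, with medians of 11320 and 7996 UMIs against 2919 and 3754.

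Cxcr2, the receptor, had few UMIs anywhere, 620 and 456 over all deposited droplets, and most of them lay in tumor cell-like cells. There it had 455 and 359 counts, 7.73 CPM (7.04 to 8.47) and 8.12 (7.30 to 9.01), compared with 5.73 and 4.60 in monocyte-like cells (27 and 17 counts), 1.75 and 0.783 in macrophage-like cells (29 and 13 counts) and 3.24 and 1.54 in T-like cells (5 and 3 counts). Endothelial-like cells had none, which allows up to 6.10 and 7.28 CPM at 3 counts and so cannot be set apart from the tumor cell-like level at this depth. Tumor cell-like cells stood 4.41-fold (3.03 to 6.66) and 10.4-fold (5.99 to 19.7) above macrophage-like cells, while 1.35-fold (0.915 to 2.07) and 1.77-fold (1.09 to 3.07) separated them from monocyte-like cells. Thinned shares were 0.989% and 1.02% in tumor cell-like cells, 0.216% and 0.159% in macrophage-like, 0.497% (0.162 to 1.16) and 0.955% (0.413 to 1.87) in monocyte-like and 0.263% (0.00666 to 1.46) and 0.205% (0.00519 to 1.14) in T-like cells. Tumor cell-like cells had been set as the background class for Cxcr2, but they had the highest share, so no other class could stand above them and the shares are not read against that background. The monocyte-like and T-like intervals overlapped in both libraries.

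Cxcr2 was also looked up in droplets with UMIs of neutrophil markers, a list that leaves Cxcr2 out. Among droplets with at least 3 of the 12 markers, 25 of 199 in the WT library (12.6%, 8.30 to 18.0) and 7 of 114 in the KO library (6.14%, 2.50 to 12.2) had Cxcr2. With at least 5 markers, a limit chosen after the data were seen, 25 and 4 droplets remained, with Cxcr2 in 21 (84.0%, 63.9 to 95.5) and 2 of them, and Cxcr2 was at 399 CPM in those of the WT library and at 629 CPM, from 2 UMIs, in those of the KO library. Of these droplets, 8 and 4 had failed the filter on cells, and 12 of the WT library stood among monocyte-like cells. Those 12 held 21 of the 27 Cxcr2 counts of that class, and without them the monocyte-like level of the WT library was 1.28 CPM, against 4.60 in the KO library, where no such droplet stood in the class. The 25 droplets of the WT library also held 153 UMIs of Cxcl2 and 33 of Cxcl1.

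**Figure D2:**
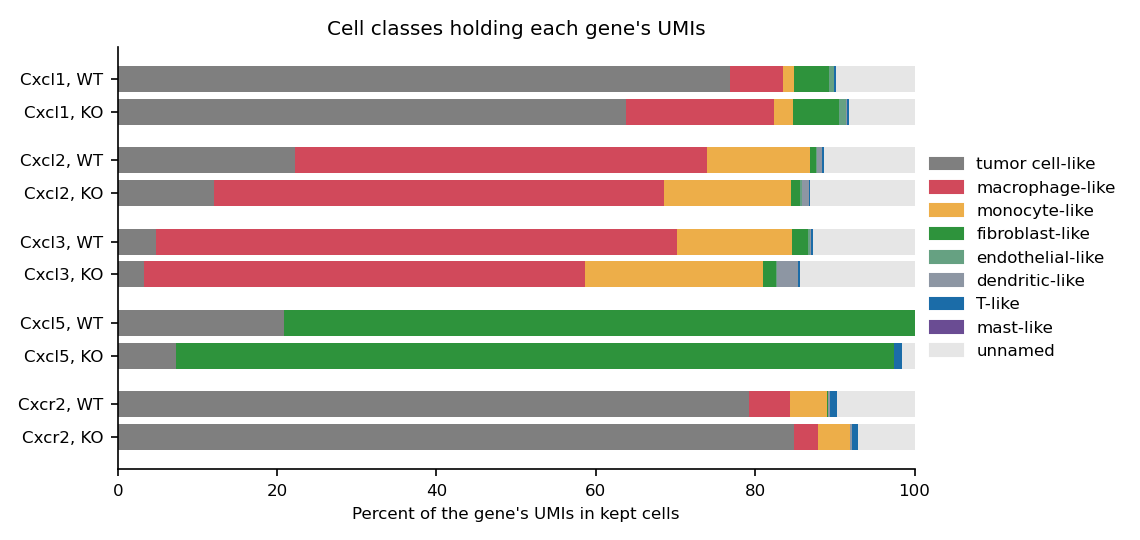
Percent of each gene's UMIs in kept cells by cell class, 1 bar per gene and library. Tumor cell-like cells hold 76.9% and 63.7% of Cxcl1, macrophage-like cells hold 51.6% and 56.4% of Cxcl2, and fibroblast-like cells hold 79.2% and 90.1% of Cxcl5.

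For Cxcl1 the class with the highest level was not the one that held most transcripts, whereas for Cxcl5 and Cxcr2 it was. Tumor cell-like cells held 76.9% of the Cxcl1 UMIs of kept cells in the WT library and 63.7% in the KO library, whereas fibroblast-like cells held 4.39% and 5.84%. The macrophage-like part of Cxcl1 was 6.66% (6.39 to 6.93) in the WT library and 18.6% (18.2 to 19.1) in the KO library. Macrophage-like cells held 51.6% and 56.4% of Cxcl2 and 65.4% and 55.3% of Cxcl3, and tumor cell-like cells held 22.3% and 12.1% of Cxcl2. Of all 94751498 and 76262235 UMIs of kept cells, tumor cell-like cells held 58869749 and 44206146, and macrophage-like cells 16542353 and 16599747. The parts given for each gene move both with the level per class and with the number and RNA content of the cells recovered. These cannot be told apart in such sums. Within a class, Cxcl1 made up 84.6% and 89.7% of the UMIs of the 4 ligands in tumor cell-like cells and 87.0% and 81.4% in fibroblast-like cells, but 16.8% (16.2 to 17.5) and 34.9% (34.1 to 35.7) in macrophage-like cells and 13.7% and 19.2% in monocyte-like cells, where Cxcl2 made up most of the rest.

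Cxcl1 and Cxcl2 also tended to be found in the same macrophage-like, monocyte-like and tumor cell-like cells. Among thinned macrophage-like cells, Cxcl2 was present in 63.6% of the 354 cells with Cxcl1 and in 36.8% of the 2418 cells without it in the WT library, and in 65.9% of 686 and 31.0% of 2461 in the KO library. In monocyte-like cells the shares were 62.7% against 34.3% and 69.9% against 41.5%. Tumor cell-like cells showed the same order at lower shares, with 16.0% against 6.49% and 10.8% against 3.52%. Cxcr2 was present in 1.28% of the WT tumor cell-like cells with Cxcl1 and in 0.824% of those without, and in 0.297% and 1.34% of those of the KO library, so the order was not shared by the libraries. These are descriptions of cells from 1 library each.

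**Figure D3:**
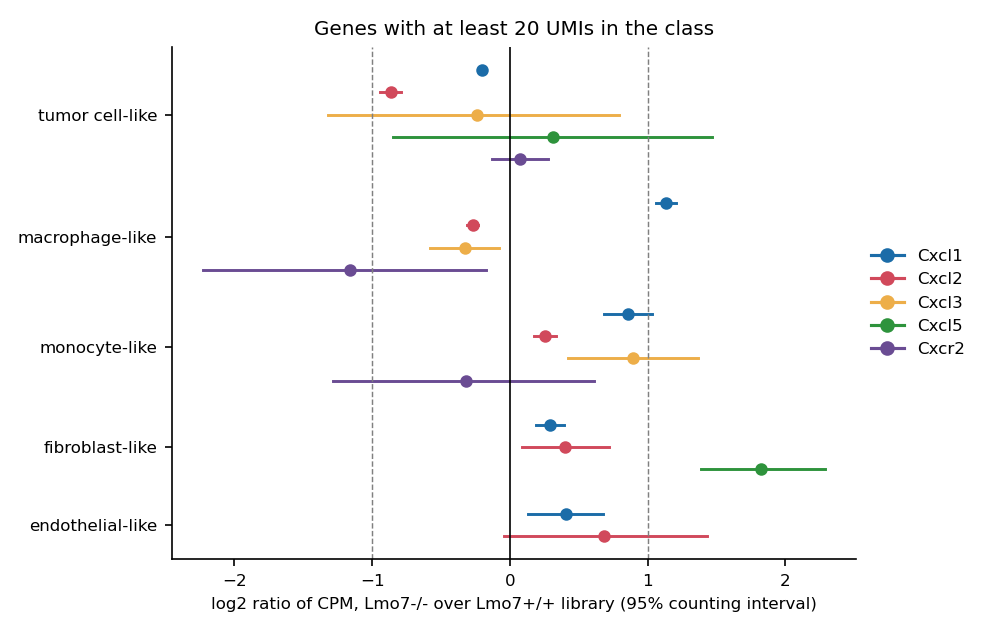
log2 ratio of CPM in the KO over the WT library per cell class, for members with at least 20 UMIs over both libraries, with exact binomial 95% counting intervals. Dashed lines mark a log2 ratio of 1 in either direction. Cxcl1 lies above 1 in macrophage-like cells and Cxcl5 in fibroblast-like cells, and Cxcl1 and Cxcl2 lie below 0 in tumor cell-like cells.

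The design compares tumors of Lmo7-/- and Lmo7+/+ hosts. In macrophage-like cells Cxcl1 was 137 CPM (132 to 143) in the WT library and 302 (294 to 310) in the KO library, a log2 ratio of 1.14 (1.06 to 1.21), while Cxcl2 at 662 and 549 CPM (-0.27, -0.31 to -0.23) and Cxcl3 at 18.0 and 14.3 CPM (-0.33, -0.58 to -0.08) were lower in the KO library. The Cxcl3 difference was not stable, since its ratio ranged from -0.42 to -0.0037 under other settings and its interval included 0 with the lenient filter, with doublets removed and in several others. Cxcr2, from 29 and 13 counts, had a log2 ratio of -1.16 (-2.23 to -0.17), which ranged from -1.17 to -0.62 under other settings and so did not stay beyond 1. Of the 4 members with at least 20 counts, Cxcl1 and, from these few counts, Cxcr2 lay beyond a log2 ratio of 1 in macrophage-like cells, where 2.86% of 11942 genes did, and the median of all genes was -0.11. In monocyte-like cells Cxcl1 (94.8 and 172 CPM, 0.86, 0.68 to 1.03), Cxcl2 (584 and 697 CPM, 0.25, 0.18 to 0.33) and Cxcl3 (14.0 and 26.0 CPM, 0.89, 0.42 to 1.37) were all higher in the KO library. None of the 4 monocyte-like members lay beyond 1, where 2.5% of 10122 genes did. Cxcl3, however, ranged from 0.53 to 1.54 under other settings. It was at 1.54 (0.47 to 2.67) with the lenient filter and at 1.09 without the highest cell of each library.

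In tumor cell-like cells both abundant ligands were lower in the KO library. Cxcl1 was 446 CPM (441 to 452) in the WT library and 388 (382 to 394) in the KO library, a log2 ratio of -0.20 (-0.23 to -0.17), and Cxcl2 was 80.3 (78.1 to 82.7) and 44.1 (42.2 to 46.1), a log2 ratio of -0.86 (-0.94 to -0.79). The T-like background of Cxcl2 was also lower in the KO library, at 24.6 and 10.8 CPM (-1.19, -2.04 to -0.39), and its part in the tumor cell-like difference was not tested. Cxcl3 (-0.24), Cxcl5 (0.31) and Cxcr2 (0.07, -0.13 to 0.27) had intervals that included 0. None of the 5 members lay beyond a log2 ratio of 1, as did 3.25% of 14231 genes. Lmo7 in the same cells was 19.7 and 15.7 CPM (-0.33, -0.47 to -0.19).

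In fibroblast-like cells all 3 members with at least 20 counts were higher in the KO library: Cxcl1 with a log2 ratio of 0.29 (0.19 to 0.39), Cxcl2 with 0.40 (0.09 to 0.72) and Cxcl5 with 1.83 (1.39 to 2.28). Only Cxcl5 lay beyond 1, where 8.04% of 6764 genes did. The Cxcl5 value rests on the 4 and 17 cells described above, and without the highest cell of each library it was 2.55, while the mean over cells of each cell's CPM gave 3.41. In the same cells the 16 tumor cell markers summed to 1870 and 370 CPM, with 6 and 5 of them at 0 and H19 alone at 1641 and 178, the 12 macrophage markers summed to 1022 and 1390 CPM with none at 0, and the 10 monocyte markers to 1019 and 1511 with 1 at 0. Their part in the ligand values was not tested. In endothelial-like cells Cxcl1 (435 and 576 CPM, 0.40, 0.13 to 0.68) was higher in the KO library and Cxcl2 (59.0 and 94.7 CPM, 0.68, -0.05 to 1.43) had an interval that included 0. Neither lay beyond 1, where 6.89% of 6251 genes did. Of the endothelial-like Cxcl1 counts, 28 of 214 and 51 of 237 came from 1 cell each. The Cxcl1 ratio ranged from 0.25 to 0.42 under other settings.

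**Figure D4:**
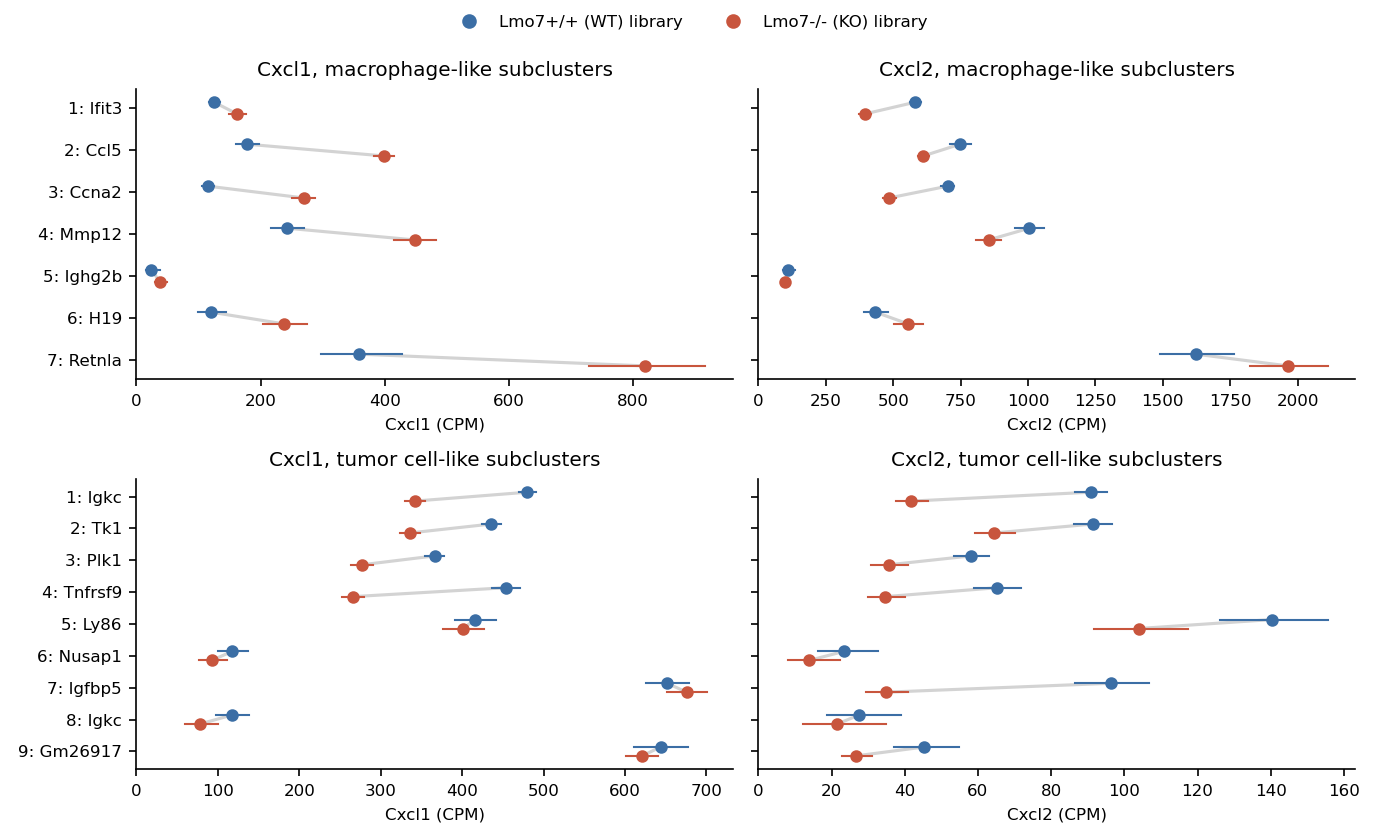
Cxcl1 and Cxcl2 (CPM, axes from 0) in the subclusters of macrophage-like (top) and tumor cell-like cells (bottom) with at least 50 cells in each library, named by number and their first leading gene, 1 point per library with its exact Poisson 95% interval. Cxcl1 is higher in the KO library in 7 of 7 macrophage-like subclusters and lower in 8 of 9 tumor cell-like subclusters.

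Macrophage-like cells split into 7 subclusters, made without the members and lists, and the ligands varied widely among them. Subcluster 7 (148 cells, led by Retnla, Lyve1, Cd209f, Cbr2 and Ednrb) was highest for all 3 related ligands, with 598 CPM (542 to 657) of Cxcl1, 1800 (1703 to 1901) of Cxcl2 and 50.4 (35.3 to 69.7) of Cxcl3. Subcluster 4 (652 cells, led by Mmp12, Atp6v0d2, Gpnmb, Tnfrsf9 and Arg1) came next for Cxcl2 and Cxcl3, with 924 and 35.3 CPM, and had 352 CPM of Cxcl1. Subcluster 5 (552 cells, led by Ighg2b, Igkc, Fcrl5, Cd300e and Clec4b1) was lowest, with 33.3, 102 and 0.853 CPM. Of the genes known to induce the ligands, subcluster 7 had the highest level of Tnf (292 CPM) and the lowest of Il1b (1397 CPM), which was highest in subcluster 2 (3983 CPM). Its Il1a, at 280 CPM, was close to that of subclusters 2 and 4, at 273 and 260 CPM. Summed, the inducing cytokines were lowest in subcluster 7, at 2413 CPM against 4588 in subcluster 2. Subcluster 7 also had the highest summed level of the NF-kB-induced list, 3815 CPM, and of the dissociation stress list, 9146 CPM, with subcluster 4 next for the latter at 8590 CPM. Cxcl1 in subcluster 2, at 345 CPM (332 to 358), could not be separated from that in subcluster 4, at 352 CPM (331 to 374). The part of the stress genes in these levels was not tested.

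Cxcl1 was higher in the KO library in 7 of the 7 macrophage-like subclusters, with intervals apart in 6 and log2 ratios from 0.38 to 1.22. In subcluster 7 it was 358 CPM in the WT library and 819 in the KO library, and in subcluster 4 it was 242 and 448. Subcluster 2 (led by Ccl5, Il18bp, Pdcd1lg2, H2-M2 and Procr) held 334 and 1165 cells, so that 77.7% came from the KO library, and had 178 and 398 CPM. Without it the Cxcl1 ratio over macrophage-like cells was 0.90 in place of 1.14. Cxcl2 was lower in the KO library in 5 of 7 subclusters, and higher in subclusters 6 and 7. The subclusters of a library share its preparation and are not replicates.

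Tumor cell-like cells formed 9 subclusters of at least 50 cells in each library. Cxcl1 was highest in subcluster 7 (led by Igfbp5, Enpp2, Cilp, Dpt and Apod) at 665 CPM (647 to 683) and subcluster 9 (led by Gm26917, Ccl2, Zdhhc2, Hist1h4i and Hspa1b) at 627 (610 to 644), and lowest in subclusters 8 and 6 at 101.4 and 106 CPM, whose cells had the lowest median depths, 1799 and 2274 UMIs. The same subcluster 7 had the highest summed level of the NF-kB-induced list, 3561 CPM, and of Il1r1, the signalling receptor of IL-1, 65.5 CPM. It also had the highest sum of the dissociation stress list, 9724 CPM against 6976 in the next, subcluster 8, and its part in the Cxcl1 level was not tested. Krt14 was at 9.81 CPM in subcluster 7. A tumor cell-like cluster with Igfbp5, Enpp2, Dpt and Apod among its leading genes scored higher for fibroblast markers (0.393) than for tumor cell markers (0.144). Its profile along the chromosomes was that of tumor cells. The part of fibroblast RNA in the Cxcl1 level was not tested. Cxcl2 and Cxcl3 were highest in subcluster 5 (led by Ly86, C1qa, Ms4a6c, Ctss and Laptm5, genes of macrophages), at 122 and 2.59 CPM, and without it the Cxcl2 ratio was -0.94. Cxcl1 was lower in the KO library in 8 of 9 subclusters, with intervals apart in 4, and Cxcl2 in 9 of 9, with intervals apart in 7.

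Cxcr2 varied among the tumor cell-like subclusters as well. It was 13.0 CPM (11.5 to 14.6) in subcluster 2, with the S phase genes Tk1, Cdc6, Chaf1b and Mybl2 among its leading genes, and 9.64 (8.18 to 11.3) in subcluster 3, led by the mitotic genes Plk1, Cdc20, Hmmr, Aspm and Ccnb1. In contrast, it was 3.16 (2.22 to 4.35) in subcluster 4, led by Tnfrsf9, Nos2, Ero1l, Slc2a1 and Col12a1, and 2.98 (1.91 to 4.44) in subcluster 7. Cxcr2 was 9.80 (7.84 to 12.1) in subcluster 9 and 8.36 (6.03 to 11.3) in subcluster 5. Mki67 was at 153 and 154 CPM there, against 128 in subcluster 2 and 270 in subcluster 3. It was lower in subclusters 1, 4, 7 and 8, at 18.3, 11.8, 32.9 and 35.2 CPM, with Cxcr2 at 6.14, 3.16, 2.98 and 3.20. Subcluster 6 had the highest Mki67 (345 CPM), but Cxcr2 at 5.601 (3.13 to 9.24), from 15 counts. The difference between subclusters 2 and 4 was seen in both libraries, with 11.7 and 3.86 CPM in the WT library and 14.9 and 2.37 in the KO library.

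Over 24 clusters with at least 50 cells in each library, taken as 48 points that share 2 libraries and unequal depth, Pearson correlations of log2(CPM + 1) were 0.068 between Cxcl1 and Cxcl2 and 0.030 between Cxcl1 and Cxcl3, but 0.789 between Cxcl2 and Cxcl3. Cxcl5 had 0.411 with Cxcl1, 0.052 with Cxcl2 and 0.156 with Cxcl3. The genes most like Cxcl1 were Mgst1 (0.857), Pdpn (0.849), Slc39a1 (0.839), Rhob (0.836) and Ier3 (0.836). Those most like Cxcl2 were Creg1 (0.926), Hexa (0.923), Hacd4 (0.920), Lgmn (0.915) and Ctsz (0.912), and those most like Cxcl3 were Il1a (0.827), Ptafr (0.816), Cd40 (0.793), Cxcl2 (0.789) and Ccrl2 (0.786). For Cxcl5, whose counts lie in 1 cluster, they were Ogn (0.933), Podn (0.922), Cpxm1 (0.921), C1qtnf3 (0.921) and Tnxb (0.918). For Cxcr2 they were Fndc3c1 (0.788), Cfap58 (0.777), Rars (0.774), Arsj (0.772) and Prl2c2 (0.763).

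Among other genes of the axis, Cxcr1 and Cxcl15, the genes of the second ELR chemokine receptor and of a lung chemokine, had at most 7 counts in any compared class and library. Ppbp, the gene of a platelet-derived ligand, was at 2.42 and 1.93 CPM in macrophage-like cells. Ackr1, the gene of an endothelial receptor that binds and transports chemokines, was at 437 and 148 CPM in endothelial-like cells (log2 ratio -1.56, -1.996 to -1.14), but 120 of its 215 WT counts came from 1 cell. Of the genes that neighbour the ligands on chromosome 5, the T cell-attracting chemokine genes Cxcl9 and Cxcl10 were higher in the KO library in all 5 compared classes. In tumor cell-like cells Cxcl9 was 67.9 and 207 CPM (log2 ratio 1.61, 1.55 to 1.66) and Cxcl10 was 248 and 588 (1.24, 1.22 to 1.27), where Cxcl1 and Cxcl2 were lower. In macrophage-like cells Cxcl9 was 833 and 1629 CPM (0.97, 0.94 to 1.00) and Cxcl10 was 609 and 665 (0.13, 0.09 to 0.16). Pf4 was lower in macrophage-like cells, at 245 and 183 CPM.

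Il1b and Il1r1, the genes of an inducing cytokine and of its signalling receptor, were highest in different classes. Tnf, in contrast, was at 107 CPM in macrophage-like cells over both libraries. Its receptor genes Tnfrsf1a and Tnfrsf1b were at 133 and 159 CPM in the same cells. Il1b was highest in monocyte-like and macrophage-like cells, at 4926 and 3309 CPM over both libraries, and was at 34.3 in tumor cell-like cells, whereas Il1r1 was at 196 CPM in fibroblast-like, 52.0 in endothelial-like, 16.3 in tumor cell-like and 1.84 in macrophage-like cells. Tlr2, the gene of a receptor for bacterial lipoproteins, was at 705 CPM in macrophage-like cells. The list called inducing cytokines held Il1a, Il1b, Tnf, Il6, Il17a, Il17f, Csf2, Csf3, Lif and Osm, so it was wider than the IL-1 and TNF named above. In macrophage-like cells, where Cxcl1 was higher in the KO library, the inducing cytokines had a median log2 ratio of -0.03 with 0 of 7 measured genes beyond 1, the 9 inducing receptors -0.09 with 0 beyond 1, and the NF-kB-induced genes 0.03 with 0 of 15 beyond 1, beside the median of -0.11 over all genes. In tumor cell-like cells the medians were -0.50 (1 of 8 below -1), -0.0047 (0 of 9 beyond 1) and -0.05 (1 of 16 below -1), beside -0.04 over all genes, and the genes below -1 were Csf3 (5.47 and 1.76 CPM) and Ccl20 (1.05 and 0.407 CPM). In monocyte-like cells they were 0.15, -0.01 and 0.03, with none of the 6, 8 and 15 measured genes beyond 1.

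In fibroblast-like cells 4 of 7 measured genes of the inducing cytokine list lay above 1, Il1a, Il1b, Lif and Csf3, with a list median of 1.38. Of the NF-kB-induced genes 2 of 14, Birc3 and Sod2, did so, with a median of 0.54. The median over all genes was -0.07, and 8.04% of them lay beyond 1. Il1b was at 157 and 428 CPM, with 75 of its 236 KO counts in 1 cell, Lif at 77.5 and 212 CPM, and Il1a at 14.0 and 36.2 CPM, with its 20 KO counts in 3 cells. The macrophage markers summed to 1022 and 1390 CPM in the same cells, and their part in these values was not tested. Csf3, the gene of the growth factor that drives neutrophil production, had 0 counts in the WT library and 40 in 9 cells of the KO library (72.5 CPM), at least 3.96 higher on the log2 scale against a floor of 3 counts for the WT library. In endothelial-like cells Csf3 had 92 and 3 counts, 38 of the 92 in 1 cell. Cxcl12, the chemokine that retains neutrophils in bone marrow, was at 488 and 1058 CPM in fibroblast-like cells (1.11, 0.91 to 1.32).

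Hypoxia and dissociation genes were compared because both can induce the ligands. The median log2 ratio of the hypoxia list was 0.42 in macrophage-like and 0.37 in tumor cell-like cells, and that of the 18 dissociation stress genes was -0.19 and -0.33. The stress list is an indicator of the warm dissociation. It summed to 6712 and 6347 CPM in macrophage-like, 5101 and 4453 in tumor cell-like and 15475 and 14473 in fibroblast-like cells. These sums were lower in the KO library, but the median log2 ratio of the list in fibroblast-like cells was 0.01. The part of the stress list in the ligand levels was not tested.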

How the data were processed

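Droplet-based single-cell RNA-seq (10x Genomics) of MC38 tumors was available as 1 library per host genotype. The authors deposited, for each library, a table of raw UMI counts per gene and droplet, for which the submitters' processing notes name Cell Ranger 2.1.1 and the mm10 genome. A droplet was kept as a cell when it had 500 or more genes, 1000 or more UMIs and no more than 15% of UMIs from mitochondrial genes. Counts were scaled to 10000 per cell and log-transformed, 2000 variable genes without the members and related lists gave 30 principal components, and Louvain clustering (resolution 0.5, 20 neighbours; igraph 0.11.9, scikit-learn 1.9.0) was followed by naming from marker lists. Tumor cell-like clusters were named by a profile along the chromosomes, with a limit set after the data were seen. Doublets were marked with Scrublet (scanpy 1.11.5) and kept.

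Raw counts were summed per class and library. With 1 library per genotype no test was run. Genes needed at least 20 counts over both libraries for a ratio, and a log2 ratio beyond 1 was the limit for counting genes. Intervals (scipy 1.17.1) are at the 95% level and cover counting error only. TMM factors came from edgeR 4.0.16. Only the ratios with their intervals and the thinning were tested on simulated data. The simulated ratios held no variation between cells, so they do not cover counts held by few cells. The members and lists were chosen with earlier results of these data known. Genes named are the members, the listed and marker genes, the leading genes of subclusters and the 5 genes most like each member among those with at least 200 counts. Of the listed symbols, 2 had no match. A leading gene of 1 subcluster is not reported here. Promoters came from RefSeq and matched 4 of the 5 members. Alternatives covered the filters, doublets, clustering, scaling, thinning and the count minimum.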

Additional observations from a re-analysis of the deposited data

Results flagged for a closer look

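Cxcl1 differed in direction between classes, with a log2 ratio of KO over WT of 1.14 in macrophage-like cells and -0.20 in tumor cell-like cells, a difference of 1.34. Cxcl2 was at 0.40 in fibroblast-like and -0.86 in tumor cell-like cells, a difference of 1.27. Cxcl3 was at 0.89 in monocyte-like and -0.33 in macrophage-like cells, a difference of 1.22. With 1 library per genotype none of these differences was tested.

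Droplets that failed the filter on cells held 46 Cxcr2 UMIs in the WT library and 33 in the KO library, of which 13 and 2 lay in droplets with at least 5 neutrophil markers. Clusters left without a name held 9.87% and 8.20% of the Cxcl1 UMIs of kept cells and 11.4% and 13.1% of the Cxcl2 UMIs.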

How the results depend on the processing

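No paired analysis was possible because each genotype has 1 library, and leaving out a replicate was not possible for the same reason. Over 247 log2 ratios of members under other settings, 219 moved by less than their counting interval, 28 moved further, and none of the ratios whose interval lay on 1 side of 0 changed sign. For Cxcl1 in macrophage-like cells the ratio was 1.21 with the strict filter, 1.25 with TMM factors, 1.05 as a mean over cells and 0.90 without macrophage-like subcluster 2. For Cxcl2 in macrophage-like cells it was -0.23 with the lenient filter, -0.20 with the strict filter, -0.22 at resolution 1.0, -0.19 at resolution 0.2, -0.22 with all variable genes, -0.16 with TMM factors, -0.10 with at most 10 UMIs per cell and -0.34 without subcluster 2. For Cxcl2 in monocyte-like cells it was 0.72 with the lenient filter, 0.14 with the strict filter, 0.65 with all variable genes and 0.34 with at most 10 UMIs per cell. In tumor cell-like cells Cxcl1 was at -0.17 with the lenient filter, -0.25 at resolution 0.2, -0.17 with TMM factors and -0.27 as a mean over cells, and Cxcl2 was at -0.78 with the lenient filter and -0.66 at resolution 0.2. In fibroblast-like cells the mean over cells gave 0.41 for Cxcl1 and 3.41 for Cxcl5, and Cxcl5 was at 2.55 without the highest cell of each library. A minimum of 100 counts left 118, 110, 46, 57 and 35 genes beyond a log2 ratio of 1 in tumor cell-like, macrophage-like, monocyte-like, fibroblast-like and endothelial-like cells in place of 463, 341, 253, 544 and 431, and the share of genes beyond 1 was then 0.980%, 1.11%, 0.646%, 2.87% and 2.09%, and the lenient filter gave 418 in monocyte-like cells. The cause was not tested. TMM factors raised all ratios by 0.11 in macrophage-like cells. No monocyte-like class formed at resolution 0.2, so it gave no value. Leaving out subclusters, highest cells or shared barcodes and the limit of 5 neutrophil markers were chosen after seeing the data. One library per genotype, low Cxcr2 and Cxcl3 counts and the few fibroblast-like cells limit these values.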
